A study of Homo sapiens with 6 samples.

Results

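The genes of the proteasome were followed in RNA sequencing of SK-OV3 cells, a human ovarian cancer line, after silencing of the long non-coding RNA PVT1. Members were taken by symbol: every row of the count table named PSM, then a letter from A to G, then a number. This gave 48 genes of the 59653 rows in the table. Of these, 46 held enough reads to be tested, and the other 2, PSMA8 and PSMB11, had at most 2 reads in any library. The 3 siControl libraries came from cells given a non-targeting siRNA pool, and the 3 siPVT1 libraries from cells given 1 pool of siRNAs against PVT1. All 6 were taken 48 h after transfection, and the cells of both groups are labelled wild type. Effects of the pool and of lowering PVT1 cannot be told apart here, because only 1 pool was used. No source used here says whether the replicates were separate cultures, so p-values measure the spread between these libraries, which may be technical.

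Levels are given as normalized counts, that is, reads per gene scaled to the mean library size after TMM correction (trimmed mean of M values). PVT1 itself read 3298, 4090 and 3377 in the siControl libraries and 2350, 2111 and 2062 in the siPVT1 libraries. All siPVT1 libraries lay below all siControl libraries, and the log2 fold change was -0.72 ± 0.0967 (estimate ± standard error from edgeR, adjusted p = 0.000342). Libraries held 28383171 to 35059576 reads, and siPVT1 replicate 3 was the deepest. The markers KRT8, KRT18, ERBB2 and PAX8 were read at 805 counts or more in every library, whereas EPCAM stayed at 41.3 to 127 normalized counts. Leukocyte markers CD3E, MS4A1 and FCGR3A were at 0 in every library, which matters because blood cells are rich in immunoproteasome. PTPRC had at most 2 counts, HBB 1, CD14 at most 10, and LYZ 4.62 to 249 normalized counts with its highest value in siControl replicate 2. Of the fibroblast markers, COL1A1 rose from a mean of 113 to 505 and PDGFRB from 85.9 to 302, while COL3A1, COL1A2 and DCN had 4 counts or fewer in any library and LUM 24 or fewer. KRT19 rose from 256 to 1261. The part of these shifts in the results was not tested. In bulk RNA, a change in the share of cells with a transcript and a change in transcript per cell cannot be told apart.

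The proteasome is the protease that degrades most ubiquitin-tagged protein in the cytosol and nucleus. Its 20S core is a barrel made of outer rings of alpha subunits and inner rings of beta subunits, and in the constitutive particle PSMB5, PSMB6 and PSMB7 carry the chymotrypsin-like, caspase-like and trypsin-like sites. Under interferon, and constitutively in immune cells, these are replaced in new particles by PSMB8, PSMB9 and PSMB10, which yields the immunoproteasome and peptides better suited to MHC class I. The barrel is opened by a cap, either the 19S particle with its ATPase ring and ubiquitin-binding lid, or the PA28 ring of PSME1 and PSME2, which is also induced by interferon.

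A member was said to rise or fall where its adjusted p was under 0.05 over all 19008 genes tested. By this rule 7 members rose and 11 fell, and 28 did not pass. The background was broad: 29.5% of all genes tested rose and 28.4% fell. Those 7 and 11 of 46 are smaller shares than these. When a change of 1 or more on the log2 scale was also required, 1 member passed, PSMG1, which fell, while 11.8% of all genes passed as higher and 9.64% as lower. Without any test, 9 members had all siPVT1 libraries above all siControl libraries and 11 had all below, while 33.2% of all genes were wholly higher and 32.3% wholly lower. The median log2 fold change was -0.14 over the tested members and 0.00 over all genes tested. The calls were not spread evenly over the classes. All 5 immunoproteasome genes rose, and of the 41 other tested members 2 rose and 11 fell.

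**Figure D1:**
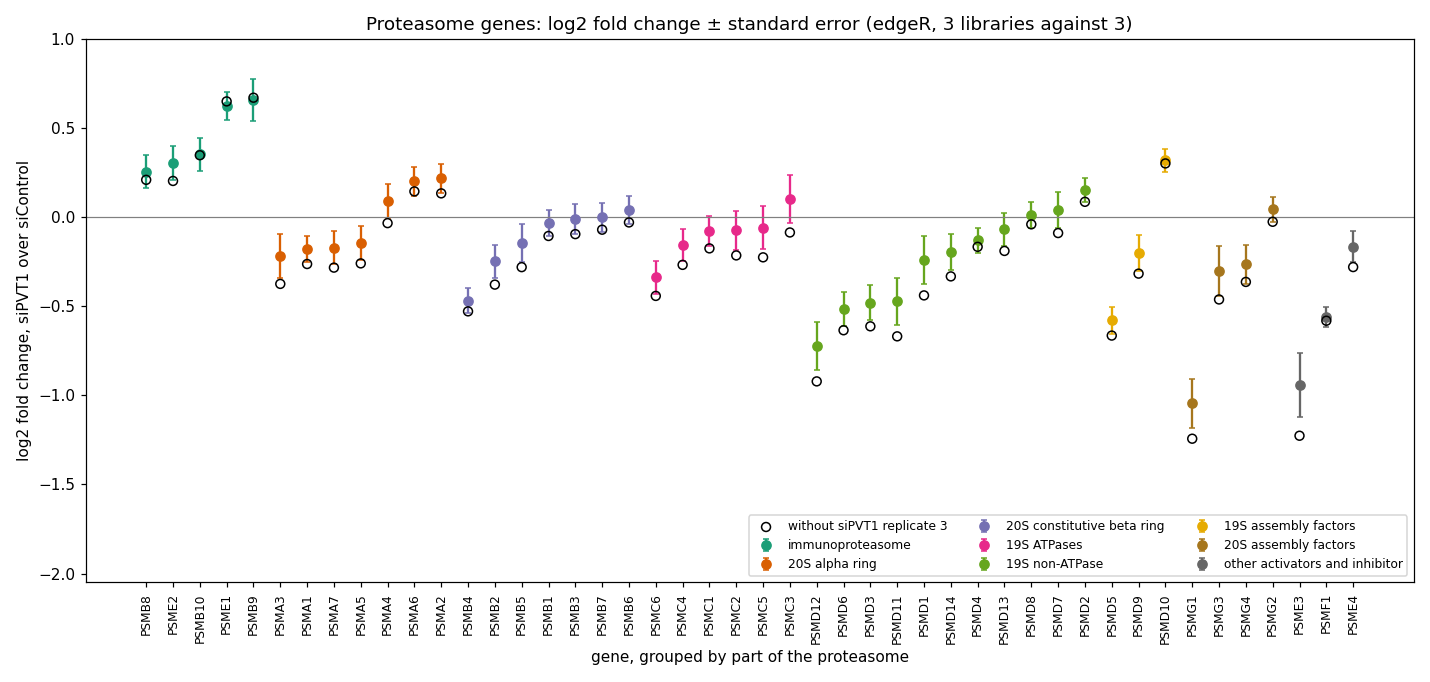
Log2 fold change (siPVT1 over siControl) of the 46 tested members, grouped by class, with filled points and bars for the estimate ± standard error from edgeR and open circles for the estimate without siPVT1 replicate 3. The 5 immunoproteasome genes lie at 0.26 to 0.65, whereas PSMG1 (-1.05) and PSME3 (-0.94) lie lowest, and most open circles lie below their filled points.

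The immunoproteasome genes comprised the catalytic subunits PSMB8, PSMB9 and PSMB10 and the PA28 activator subunits PSME1 and PSME2. All 5 of 5 rose with non-overlapping groups, with a median log2 fold change of 0.35 and a range of 0.26 to 0.65. Of all genes tested, 29.5% rose and 33.2% had wholly higher groups. The highest estimate was that of PSMB9, the caspase-like position subunit of the induced particle. It read 184, 145 and 165 in siControl and 282, 249 and 249 in siPVT1, giving 0.65 ± 0.118 on the log2 scale (adjusted p = 0.0017). Per transcript length PSMB9 was the least abundant of the 3 induced catalytic subunits, at 162 ± 18.8 normalized counts per kilobase in siControl (SD, n = 3), next to 313 ± 26 for PSMB10 and 524 ± 49.5 for PSMB8.

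PSME1, the PA28 alpha subunit, read 1437, 1265 and 1481 in siControl and 2231, 2192 and 2026 in siPVT1, giving 0.62 ± 0.0789 (adjusted p = 0.000251). Its groups were far apart relative to their spread. Its partner PSME2, PA28 beta, read 1804, 1595 and 1927 against 2010, 2122 and 2435 (0.30 ± 0.0969, adjusted p = 0.0267). Here the lowest siPVT1 library stood only just above the highest siControl library. The ratio of PSME1 to PSME2 reads per length moved from 64.6% ± 1.26 to 81.5% ± 11.8 (SD, n = 3 libraries), and was 91.2, 84.9 and 68.4% in the siPVT1 libraries.

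PSMB10, the trypsin-like subunit, read 319, 277 and 322 in siControl and 398, 390 and 385 in siPVT1 (0.35 ± 0.0908, adjusted p = 0.0104). PSMB8, the chymotrypsin-like subunit, read 631, 526 and 611 against 716, 662 and 733 (0.26 ± 0.0917, adjusted p = 0.0417). The siPVT1 libraries were tight for PSMB10, while for PSMB8 the gap between groups was small. The calls for PSMB8 and PSME2 were lost when some single libraries were left out. PSMB8 lost its call without siControl replicate 1, 2 or 3 (adjusted p = 0.0514, 0.12 and 0.0783) and without siPVT1 replicate 1 or 3 (0.0719 and 0.0531). PSME2 lost its call without siControl replicate 1 or 2 (0.0675 and 0.0902) or siPVT1 replicate 2 (0.0562). Scaled by total count alone, only PSMB9 (0.51) and PSME1 (0.48) of the 5 passed, with all genes shifted to a median of -0.15.

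**Figure D2:**
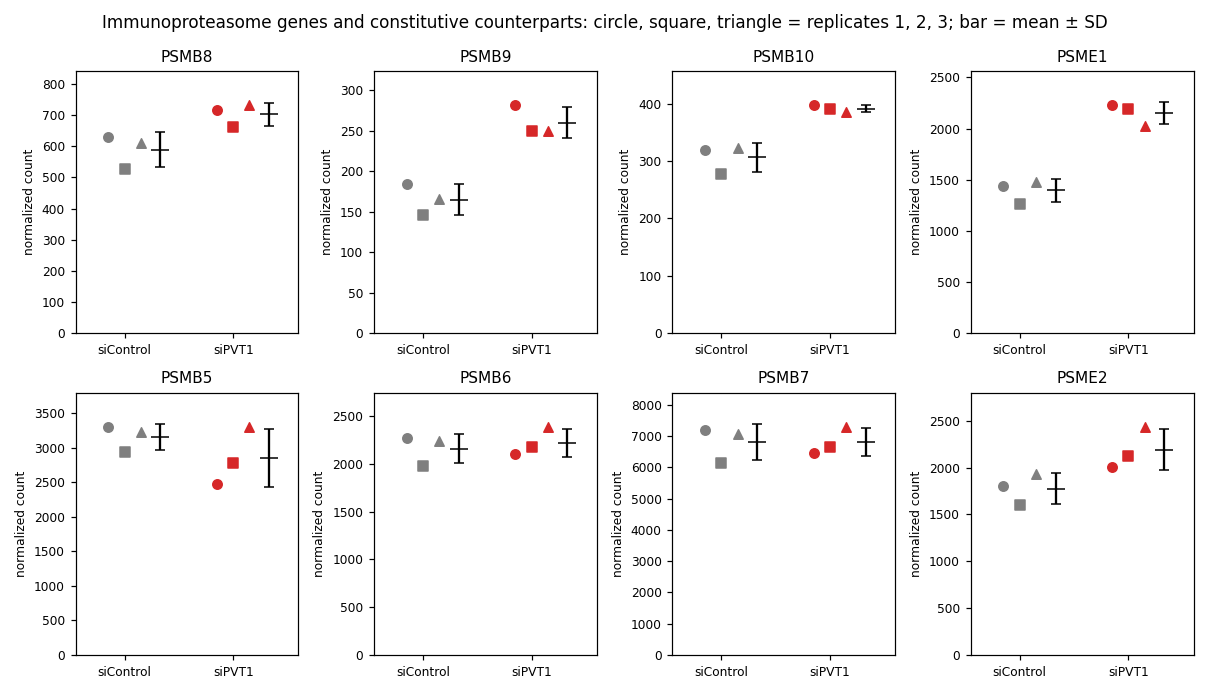
Normalized counts per library of the 5 immunoproteasome genes and of PSMB5, PSMB6 and PSMB7, the constitutive counterparts of the catalytic subunits, with circle, square and triangle for replicates 1, 2 and 3 and bars for the mean ± SD. All siPVT1 libraries lie above all siControl libraries in PSMB8, PSMB9, PSMB10, PSME1 and PSME2, while the groups overlap in PSMB5, PSMB6 and PSMB7.

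None of the 3 constitutive catalytic subunits passed the test. PSMB5 read 3303, 2938 and 3226 in siControl and 2478, 2773 and 3301 in siPVT1 (log2 fold change -0.15 ± 0.106, adjusted p = 0.269). PSMB6 read 2267, 1981 and 2235 against 2108, 2172 and 2389 (0.04 ± 0.0783, adjusted p = 0.682). PSMB7 read 7212, 6140 and 7078 against 6450, 6657 and 7305 (-0.0012 ± 0.0806, adjusted p = 0.992). The groups overlapped in all 3 genes, and siPVT1 replicate 3 was the highest siPVT1 library in each.

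Within a library, a ratio of 2 genes does not depend on the scaling of that library, so each induced subunit was set against its counterpart as reads per transcript length. PSMB8 amounted to 17.8, 16.6 and 17.6% of PSMB5 in siControl and 26.8, 22.2 and 20.6% in siPVT1. PSMB9 amounted to 6.57, 5.95 and 5.99% of PSMB6 in siControl and 10.8, 9.29 and 8.44% in siPVT1. PSMB10 amounted to 4.46, 4.54 and 4.59% of PSMB7 in siControl and 6.21, 5.9 and 5.31% in siPVT1. The groups did not overlap in any of the 3 ratios, and the constitutive transcript stayed the more abundant one of each pair in every library. On the log2 scale the ratios rose by 0.41, 0.62 and 0.36 in mean value, and leaving out any 1 library gave 0.30 to 0.49, 0.52 to 0.70 and 0.31 to 0.42. In all 3 ratios siPVT1 replicate 1 was highest and siPVT1 replicate 3 lowest of the siPVT1 libraries. These ratios are descriptions with no test, and rest on the length of the canonical transcript.

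**Figure D3:**
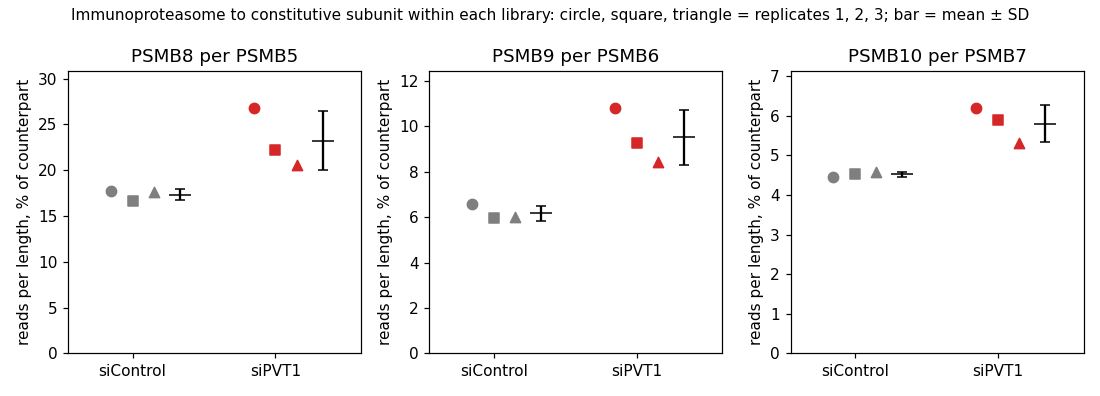
Ratio of each induced catalytic subunit to its constitutive counterpart in reads per transcript length (% of the counterpart), with circle, square and triangle for replicates 1, 2 and 3 and bars for the mean ± SD. The siPVT1 libraries lie above the siControl libraries in all 3 pairs: 23.2% against 17.3% for PSMB8, 9.52% against 6.17% for PSMB9 and 5.81% against 4.53% for PSMB10.

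PSMB8 and PSMB9 lie in the MHC class II region, next to the peptide transporter genes TAP1 and TAP2. In the GENCODE v44 annotation of GRCh38, PSMB8 covers chr6:32840717-32844679 on the minus strand and PSMB9 chr6:32844136-32859851 on the plus strand. TAP1 covers chr6:32845209-32853816 and TAP2 chr6:32821833-32838739, both on the minus strand. The annotated span of PSMB9 thus overlaps TAP1 and the start of PSMB8. Whether their exons overlap was not checked, and the sources used here do not say whether the counting used strand. Any reads in shared exons are therefore uncertain. The RefSeq start sites of PSMB9 and TAP1 are 488 bases apart and face away from each other. TAP1 rose with its neighbour (948, 820 and 926 against 1588, 1325 and 1234, log2 fold change 0.62 ± 0.107, adjusted p = 0.00135). TAP2, on the other side of PSMB8, fell (2710, 2805 and 2625 against 1124, 1342 and 1659, -0.98 ± 0.128, adjusted p = 0.000296). PSME1 (chr14:24136163-24138967, plus strand) and PSME2 (chr14:24143362-24147570, minus strand) also lie near each other, with RefSeq start sites 10416 bases apart. IRF9 lies further along, at chr14:24161234-24168043, and genes between these were not looked up. PSMB10 lies at chr16:67934506-67936864 on the minus strand.

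Promoters of 4 immunoproteasome genes whose windows held a match to one of the patterns searched are shown because interferon and stress-responsive factors are known to act on proteasome genes through short sites near the start. RefSeq windows (GRCh38.p14, from 250 bases before to 50 after the start) were found for 42 of the 48 members and searched on both strands for 3 letter patterns. These were the core of the interferon-stimulated response element (ISRE, GAAANNGAAA, bound by IRF factors), the interferon-gamma activated site (GAS, TTCNNNGAA, bound by STAT dimers) and the antioxidant response element core (ARE, TGACNNNGC, bound by NRF1 and NRF2). The stretches run 5′ to 3′ along the strand of the gene, from 225 bases before the start to 25 bases into the gene, and capitals mark a match to any of the 3 patterns. TAP1 is included as the divergent neighbour of PSMB9.
PSMB9 (chr6:32853967-32854216, plus strand): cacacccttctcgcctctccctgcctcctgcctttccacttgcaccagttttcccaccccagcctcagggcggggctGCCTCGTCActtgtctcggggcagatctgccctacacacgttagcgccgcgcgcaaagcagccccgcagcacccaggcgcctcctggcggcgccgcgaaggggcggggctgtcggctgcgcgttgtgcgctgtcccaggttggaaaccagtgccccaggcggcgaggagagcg
TAP1 (chr6:32853680-32853929, minus strand): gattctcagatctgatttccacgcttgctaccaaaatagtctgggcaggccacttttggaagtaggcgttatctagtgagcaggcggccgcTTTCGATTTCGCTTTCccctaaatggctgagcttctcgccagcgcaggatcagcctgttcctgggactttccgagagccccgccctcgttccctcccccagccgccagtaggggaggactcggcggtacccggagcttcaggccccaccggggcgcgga
PSMB10 (chr16:67936826-67937075, minus strand): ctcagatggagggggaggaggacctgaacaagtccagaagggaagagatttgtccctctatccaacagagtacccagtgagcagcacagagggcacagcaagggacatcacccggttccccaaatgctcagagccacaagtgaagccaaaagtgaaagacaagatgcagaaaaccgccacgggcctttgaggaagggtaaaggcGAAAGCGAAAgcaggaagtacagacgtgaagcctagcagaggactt
PSME1 (chr14:24135969-24136218, plus strand): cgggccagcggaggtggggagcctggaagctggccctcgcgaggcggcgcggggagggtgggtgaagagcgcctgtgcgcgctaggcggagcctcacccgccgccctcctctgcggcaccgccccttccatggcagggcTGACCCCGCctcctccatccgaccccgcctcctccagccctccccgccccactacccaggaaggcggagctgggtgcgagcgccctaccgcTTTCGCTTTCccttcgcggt
PSME2 (chr14:24146586-24146835, minus strand): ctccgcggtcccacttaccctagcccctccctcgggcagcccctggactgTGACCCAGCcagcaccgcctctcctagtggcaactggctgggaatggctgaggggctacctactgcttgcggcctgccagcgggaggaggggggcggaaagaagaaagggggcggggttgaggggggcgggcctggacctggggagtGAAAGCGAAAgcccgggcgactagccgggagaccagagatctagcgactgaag

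The ISRE core was found in the windows of PSMB10, PSME1 and PSME2, that is 3 of 5 immunoproteasome genes (60%). Over all members it was in 6 of 42 (14.3%), and over all RefSeq promoter windows in 1255 of 35116 (3.57%). The remaining members with the core did not rise: PSMB4 fell (-0.47), and PSMG4 (-0.26) and PSMA4 (0.09) did not pass. In PSMB10 and PSME2 the match began 21 and 28 bases before the start, and in PSME1 it began 5 bases after it. The PSMB9 window held none, but that of TAP1 held 2 overlapping matches at chr6:32853823-32853838, which lies 354 bases before the start of PSMB9. That of TAP2, which fell, held the core as well, beginning 58 bases before its start. The ARE core was in 3 of 5 immunoproteasome windows (PSMB9, PSME1 and PSME2), in 13 of 42 member windows (31%) and in 13.3% of all. The GAS pattern was in 0 of 5 immunoproteasome windows, in 5 of 42 member windows (11.9%) and in 7.66% of all, and the PSMB8 window held none of the 3 patterns. A match is a run of letters and no measured binding site.

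The genes known to drive the immunoproteasome were read beside it. IRF9, the DNA-binding part of the ISGF3 complex, rose past both thresholds, from 222, 223 and 255 to 581, 567 and 580 (log2 fold change 1.30 ± 0.0879, adjusted p = 1.03e-05). IRF1, which binds the shared PSMB9 and TAP1 promoter, rose by 0.71 (adjusted p = 5.33e-05), and STAT2 by 0.55 (adjusted p = 0.000338). NLRC5, the transactivator of MHC class I genes, fell by 0.80 on the log2 scale, from 372, 352 and 357 to 223, 205 and 195 (adjusted p = 0.000147). Of the 5 listed inducers 3 thus rose and 1 fell, while 29.5% of all genes tested rose and 28.4% fell.

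Of 8 genes of peptide transport and loading, 5 rose and 1 fell, with a median of 0.33. Among all genes tested 29.5% rose and 28.4% fell. B2M, the light chain of MHC class I, passed both thresholds, from 12540, 11137 and 12734 to 26031, 25488 and 23961 (log2 fold change 1.05 ± 0.0706, adjusted p = 9.99e-06). TAP2 was the lowest of the list. The rise was thus not shared by the whole list. In it 2 genes did not pass, and TAP1 and TAP2, which form the transporter together, went opposite ways.

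Of the 14 genes of the constitutive 20S core, 1 rose, 2 fell and 11 did not pass, and the median log2 fold change was -0.09. These are smaller shares than the 29.5% and 28.4% of all genes tested that rose and fell. In the alpha ring, which gates the barrel, values ran from -0.22 to 0.22. The highest was PSMA2 (3301, 2922 and 3356 against 3572, 3507 and 4056, 0.22 ± 0.082, adjusted p = 0.0497), the only alpha subunit that passed. Its call was lost without siControl replicate 1, 2 or 3 (adjusted p = 0.0874, 0.148 and 0.0687) and without siPVT1 replicate 2 or 3 (0.0585 and 0.0617). The lowest was PSMA3 (4012, 3322 and 3902 against 2787, 3051 and 3825, -0.22 ± 0.124, adjusted p = 0.168), whose groups overlapped through siPVT1 replicate 3. Without that library PSMA3 read -0.37 (adjusted p = 0.00145).

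In the beta ring PSMB4, a structural subunit, fell from 4594, 4113 and 4519 to 3144, 3034 and 3373 (-0.47 ± 0.0693, adjusted p = 0.000585). It was the one beta subunit with separate groups. PSMB2 also fell (4980, 4730 and 4969 against 3722, 3888 and 4743, -0.25 ± 0.093, adjusted p = 0.0485), with siPVT1 replicate 3 inside the siControl range. Its call was lost without siControl replicate 1, 2 or 3 (adjusted p = 0.12, 0.0807 and 0.117) or siPVT1 replicate 1 or 2 (0.0858 and 0.128). PSMB1 and PSMB3 read -0.03 and -0.01 and did not pass. PSMB6 was the highest of the ring, at 0.04.

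The 19S cap counted 17 subunits, of which 5 fell and 12 did not pass, with a median of -0.13. That is near the share of all genes tested that fell, 28.4%. Among the 6 ATPases that unfold substrates, PSMC6 alone fell (3518, 3136 and 3627 against 2473, 2626 and 3028, -0.34 ± 0.0916, adjusted p = 0.0129), and without siControl replicate 3 its adjusted p was 0.0508. PSMC3 was the highest ATPase (3737, 3141 and 3672 against 3274, 3422 and 4627, 0.10 ± 0.135, adjusted p = 0.546). Its siPVT1 replicate 3 stood above all other libraries, and without it the value was -0.09. Among the 11 non-ATPase subunits 4 fell, and these were the lid subunits PSMD12, PSMD6, PSMD3 and PSMD11. Not all of the lid fell: PSMD7 (0.04), PSMD8 (0.01) and PSMD13 (-0.07) did not pass, and their groups overlapped.

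PSMD12 changed most, from 7048, 6413 and 6884 to 3440, 3797 and 5079 (-0.72 ± 0.133, adjusted p = 0.00193). PSMD6, PSMD3 and PSMD11 read -0.52, -0.48 and -0.47, all with separate groups, and PSMD11 lost its call without siPVT1 replicate 2 (adjusted p = 0.057). The lid deubiquitinase PSMD14 read -0.20 (adjusted p = 0.138) and the ubiquitin receptor PSMD4 -0.13 (adjusted p = 0.148). PSMD2, a base scaffold, was the highest of the class (30043, 27864 and 29859 against 31850, 30927 and 34691, 0.15 ± 0.0653, adjusted p = 0.0784). Its groups did not overlap but it did not pass. PSMD2 was also the most abundant member per transcript length, at 10043 ± 415 normalized counts per kilobase in siControl, with PSMB7 next at 6921 ± 593.

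Assembly factors guide subunits into place and leave the finished particle. Of 7, 1 rose and 2 fell, with a median of -0.26. The falls are near the background, since 28.4% of all genes tested fell and 29.5% rose. PSMG1, which with PSMG2 forms the chaperone that starts the alpha ring, was the only member past both thresholds. It fell from 1626, 1454 and 1531 to 621, 691 and 918 (-1.05 ± 0.137, adjusted p = 0.000301). All siPVT1 libraries stood far below the siControl libraries. Without siPVT1 replicate 1 the value was -0.94, short of the size threshold, and without siPVT1 replicate 3 it was -1.24. Its partner PSMG2 read 1606, 1521 and 1510 against 1532, 1537 and 1708 (0.04 ± 0.0689, adjusted p = 0.619), with overlapping groups.

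The 19S chaperones went different ways. PSMD5 fell (3670, 3515 and 3559 against 2203, 2366 and 2617, -0.58 ± 0.0736, adjusted p = 0.000256). PSMD10, also known as gankyrin, rose (1195, 1132 and 1261 against 1467, 1514 and 1496, 0.32 ± 0.0653, adjusted p = 0.00332). PSMD9 read -0.20 and did not pass. Both called chaperones had separate groups.

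The remaining members are the nuclear activator PSME3 (PA28 gamma), the activator PSME4 (PA200) and the inhibitor PSMF1 (PI31), which read at a median of -0.56. PSME3 fell from 10072, 10110 and 9937 to 3959, 4717 and 6981 (-0.94 ± 0.18, adjusted p = 0.00232). The siControl libraries lay close together (SD 90.6) and the siPVT1 libraries far apart (SD 1573), and without siPVT1 replicate 3 the value was -1.23. PSMF1 fell evenly (2908, 2860 and 2991 against 2032, 1914 and 1986, -0.56 ± 0.057, adjusted p = 7.58e-05). PSME4 was the highest of the class (5627, 5863 and 5637 against 4590, 4919 and 5756, -0.17 ± 0.0856, adjusted p = 0.131), and without siPVT1 replicate 3 it read -0.28 (adjusted p = 0.00108). PSME1 and PSME2 of the induced PA28 ring thus rose while PSME3, which forms the nuclear ring, fell. Per length, PSME1 read 47, 41.3 and 49.1% of PSME3 in siControl and 186, 153 and 95.7% in siPVT1.

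**Figure D4:**
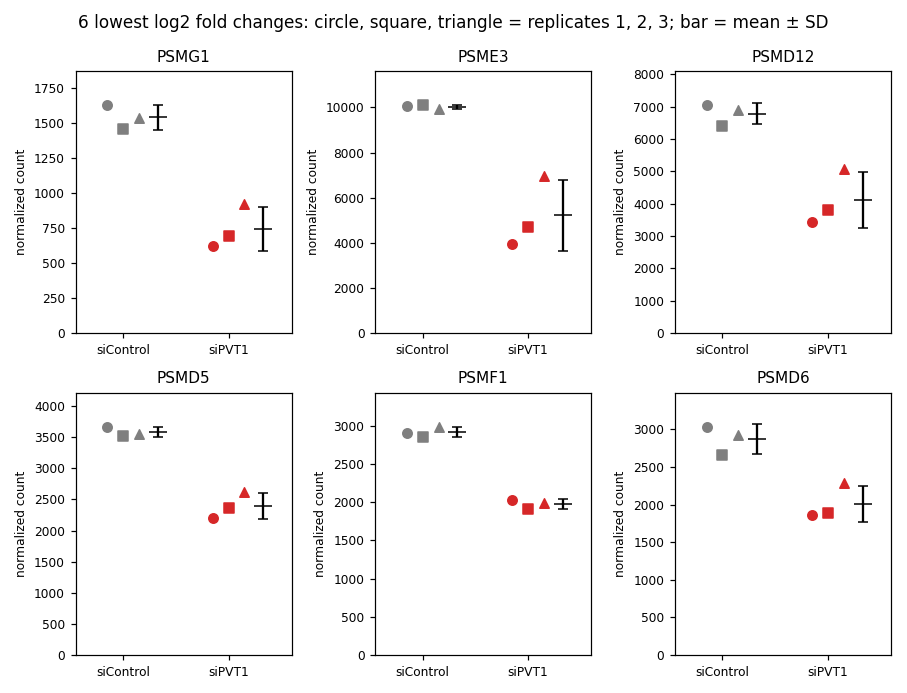
Normalized counts per library of the 6 members with the lowest log2 fold changes, with circle, square and triangle for replicates 1, 2 and 3 and bars for the mean ± SD. All siPVT1 libraries lie below all siControl libraries in each gene, and siPVT1 replicate 3 (triangle) is the highest siPVT1 library in PSMG1, PSME3, PSMD12, PSMD5 and PSMD6 but not in PSMF1.

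The siPVT1 libraries did not weigh equally in these results. siPVT1 replicate 3 was the highest of the 3 siPVT1 libraries for 41 of the 46 tested members (89.1%), compared with 41.3% of all genes tested. This library also stood apart outside the members. Over all genes with enough reads, its chi-square per degree of freedom was 45.3 against siPVT1 replicate 1 and 19.6 against replicate 2. The value was 8.62 between siPVT1 replicates 1 and 2, and 1.75 to 5.67 between siControl libraries. The members' median log2 ratio to the siControl mean was -0.26, -0.17 and 0.06 in siPVT1 replicates 1, 2 and 3. For the immunoproteasome genes the same medians were 0.38, 0.35 and 0.46, so this class stood above the siControl mean in every siPVT1 library. PVT1 was lowest in siPVT1 replicate 3, and that library was also the deepest, but the part of depth in the result was not tested. The members took 0.663, 0.635 and 0.663% of all reads in siControl and 0.495, 0.519 and 0.6% in siPVT1.

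Without siPVT1 replicate 3, 5 members rose and 28 fell, while 30.9% of all genes rose and 33.4% fell. The lower calls then included 7 of the 14 core genes, 13 of the 17 subunits of the 19S cap and 5 of the 7 assembly factors. Of the immunoproteasome genes 4 rose and PSMB8 did not pass. PSMG1 (-1.24) and PSME3 (-1.23) were then past both thresholds. The number of constitutive genes called lower thus depended on this 1 library, whereas the 5 immunoproteasome genes read higher with it and without it. That number depended on the scaling as well. Scaled by total count with all libraries kept, 26 members fell, among them 8 core genes and 10 subunits of the 19S cap, while 36.2% of all genes fell. No label ties the libraries to a batch.

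**Figure D5:**
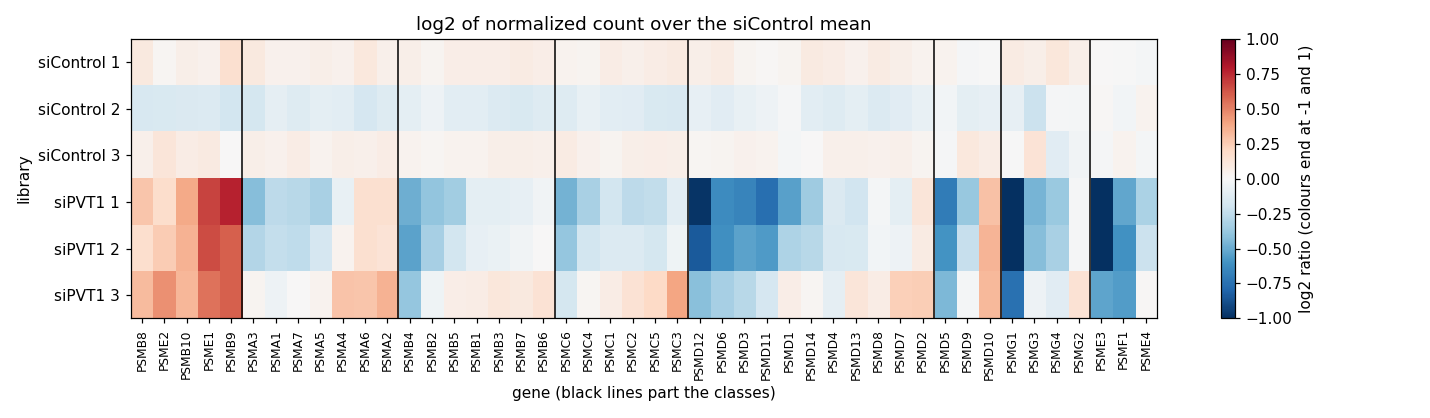
Log2 ratio of each library's normalized count to the siControl mean (colour, ends at -1 and 1) for the 46 tested members (columns, black lines part the classes) in the 6 libraries (rows). The 5 immunoproteasome genes on the left are red in all siPVT1 libraries, whereas most other genes are blue in siPVT1 replicates 1 and 2 and pale in siPVT1 replicate 3.

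Genes that act with the proteasome were counted from short lists. Of 11 proteasome-bound factors 7 fell and 4 did not pass, with a median of -0.24. Among all genes tested 28.4% fell. The lowest was UCHL5, a deubiquitinase of the 19S base (1631, 1518 and 1563 against 868, 998 and 1206, -0.62 ± 0.114, adjusted p = 0.00195). The other deubiquitinase, USP14, also fell (-0.41, adjusted p = 0.0147). SEM1, a small lid subunit outside the naming rule, was the highest (935, 697 and 865 against 889, 1031 and 1157, 0.30 ± 0.132, adjusted p = 0.081) and did not pass. Without siPVT1 replicate 1 its adjusted p was 0.0241. The core maturation factor POMP read 0.06 (adjusted p = 0.619).

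NFE2L1 encodes NRF1, the factor that restores proteasome genes when the particle is inhibited. It read 17417, 16471 and 17185 against 16832, 17050 and 17045 (-0.0041 ± 0.0524, adjusted p = 0.953). NFE2L2, which encodes NRF2, fell slightly (4600, 4417 and 4658 against 3929, 3803 and 3971, -0.22 ± 0.0546, adjusted p = 0.00785). The genes that process NRF1 protein moved in both directions. DDI2, the protease that cleaves it, rose by 0.58 (adjusted p = 0.000118), and NGLY1, which removes its glycans, was the lowest of the list at -0.59 (adjusted p = 8.8e-05). SEL1L, a part of the ER ubiquitin ligase that turns NRF1 over, was the highest at 0.93 (adjusted p = 4.69e-06). Of the 7 genes of this list 2 rose and 2 fell, near the shares over all genes tested, 29.5% and 28.4%.

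Upstream of the particle, 4 of 6 genes of ubiquitin and its activation rose and 2 did not pass, with a median of 0.28. UBA6, an activating enzyme, was the highest (3584, 3343 and 3505 against 6851, 6325 and 5794, 0.86 ± 0.0737, adjusted p = 3.17e-05). For these lists too, the shares over all genes tested were 29.5% higher and 28.4% lower. Of 5 shuttle receptors, which bring ubiquitin-tagged protein to the proteasome, 1 rose and 3 fell. UBQLN4 was the lowest (-0.72, adjusted p = 0.000399).

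Reads of close copies and of antisense genes could blur some members. The table named 35 pseudogenes of members, of which 5 were tested and the most abundant, PSMC1P1, had at most 577 counts in a library, next to 5115 or more for PSMC1. Of the 6 genes in the catalytic ratios only PSMB7 had a listed pseudogene, PSMB7P1, which was at 0 in every library. Of 5 antisense genes 4 were tested. PSMB8-AS1 rose (24.8, 27.3 and 15.7 against 44.5, 36.1 and 46.0, 0.90 ± 0.265, adjusted p = 0.0182) at a level far below that of PSMB8. PSMD6-AS2 rose past both thresholds (60.0, 71.7 and 49.9 against 161, 122 and 128, 1.18 ± 0.183, adjusted p = 0.00077) while PSMD6 fell. PSMA3-AS1 fell (1458, 1379 and 1414 against 839, 1027 and 1058, -0.54 ± 0.0941, adjusted p = 0.00144).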

How the data were processed

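RNA of SK-OV3 cells was extracted with Trizol, made into mRNA libraries with a KAPA HyperPrep kit and sequenced as single-end reads in 6 libraries, 3 per group. Per the submitters' processing notes and the study's methods, the authors used bcl2fastq 2.20.0, STAR 2.7.3a and Salmon 0.14.1 with GRCh38.p13 to make a deposited table of estimated counts per gene (expected counts, whole numbers in the file). Their own comparison, not used here, was made with DESeq2, for which the processing notes list 1.28.1 and the study's methods give another version. Columns were matched to libraries by the names in the labels.

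Counts were tested with edgeR 4.0.16 (quasi-likelihood, TMM, R 4.3.3) for siPVT1 against siControl over the 19008 genes that reached 5 normalized counts in 3 or more libraries, with Benjamini-Hochberg adjustment over all of them. The other 40645 rows were left out, 25268 of them at 0 in all libraries. Standard errors were taken from the test statistic. The scripts were tested on simulated data. No 2 libraries of a group agreed within sampling noise, so none was taken as a repeat read of another. Each counted as 1 sample, although this does not show that they came from separate cultures. DESeq2 1.42.0, other scalings and filters, a replicate block and leaving out each library were alternatives.

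The members and lists were chosen with earlier results of these data known. Named with values in every library were the immunoproteasome genes and their counterparts, members past both thresholds, and the highest and lowest member of each other class. From other lists, genes past both thresholds or the highest and lowest were named, with PVT1, NFE2L1 and NFE2L2. A few genes of these lists are not reported here. Other named genes, among them the antisense genes, TAP1, TAP2, IRF1 and PSMF1, were chosen after their values were seen. Gene spans and canonical transcript lengths came from GENCODE v44 and promoter windows from RefSeq.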

Additional observations from a re-analysis of the deposited data

How the results depend on the processing

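Scaling by total count moved the median of all genes to -0.15 and the share of higher calls among passed genes from 51.0% to 39.4%. Under it 3 members rose, 26 fell and 2 passed both thresholds, while 23.6% of all genes tested rose and 36.2% fell. In this setting 8 core genes and 10 subunits of the 19S cap were lower and 2 immunoproteasome genes higher. Class medians were 0.20 for the immunoproteasome and -0.24 for the core. A test against a 2-fold change left 1976 genes and 0 members. Leaving out 1 library at a time gave 4 to 6 members higher, 9 to 28 lower, 0 to 2 past both thresholds, 3 to 4 immunoproteasome genes higher (median 0.29 to 0.39), 1 to 7 core genes lower and 4 to 13 subunits of the 19S cap lower. The highest counts of lower calls came without siPVT1 replicate 3.

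Among the genes run under every alternative, 5 changed sign, each with a value near 0. PSMB6 read -0.11, PSMC3 -0.046 and PSMG2 -0.11 scaled by total count. Leaving out 1 library at a time gave -0.030 to 0.071 for PSMB6, -0.071 to 0.036 for PSMB7, -0.086 to 0.18 for PSMC3, -0.026 to 0.065 for PSMG2 and -0.026 to 0.0066 for NFE2L1. The cause was not tested.

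No pairing by replicate number was seen, as deviations from the group means correlated at -0.032, 0.021 and 0.00086 between same-numbered libraries. With 3 libraries per group, this cannot show that the libraries were unpaired. With the numbers as a replicate block 7 members rose and 12 fell, 5 immunoproteasome genes rose, and PSMB7 read 0.00034. DESeq2 gave 7 members higher and 12 lower. These counts do not say that the same genes were called.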
